A study of Mus musculus with 4 samples.

Results

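The cells described here are inhibitory neurons from hippocampal libraries with many transcripts of Cnr1, the gene of the cannabinoid receptor CB1. They had few or no transcripts of Lamp5, Vip, Sst and Pvalb, the genes that name other interneuron classes. Further genes that mark those classes were not limited. They were picked nucleus by nucleus from unique molecular identifier (UMI) counts. A nucleus was taken when it had at least 500 detected genes, at least 3 UMIs of Gad1 and Gad2 together, at most 1 of Slc17a7, at least 5 of Cnr1, at least 1 of Adarb2, at most 1 each of Lamp5, Vip and Sst, and 0 of Pvalb. The rule found 765 nuclei among 60288 barcodes in 4 libraries. In the library labelled tKO (described below), 13.8% of them also carried at least 3 UMIs over 7 genes of striatal medium spiny neurons. In the other libraries the share was 2.31% to 3.39%. The name interneuron may therefore not hold for every nucleus. Because Cnr1, Adarb2 and the other 7 genes of the rule chose the nuclei, their levels are a description and none was tested.

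Cholecystokinin (CCK) basket cells and their relatives are GABAergic interneurons that innervate pyramidal cells and carry CB1 densely on their axon terminals. A depolarized pyramidal cell makes the endocannabinoid 2-arachidonoylglycerol (2-AG) with diacylglycerol lipase, and 2-AG travels back across the synapse, binds CB1 and holds back GABA release. Monoacylglycerol lipase (MAGL), encoded by Mgll, breaks 2-AG down, in neurons and in astrocytes. Cells of this kind arise largely from the caudal ganglionic eminence, whereas most Sst and Pvalb cells arise from the medial ganglionic eminence.

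The study sequenced nuclear RNA from mouse hippocampus in 1 library for each of 4 genotype labels: wild type (WT), a total or global MAGL knockout (tKO), a knockout in astrocytes only (aKO) and a knockout in neurons only (nKO). For each library, the sources used here do not give the Cre driver, the deleted part of Mgll, the strain, the age or the number of animals. With 1 library a genotype, no difference between genotypes could be tested, and the ratios given for them carry intervals for counting error only. In sums over nuclei, fewer nuclei with a transcript and less RNA per nucleus cannot be told apart, so shares of nuclei are given where the results turn on them.

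The libraries held 9369 barcodes (WT), 31243 (tKO), 10731 (aKO) and 8945 (nKO), with 81623644 to 193307038 UMIs each. The library labelled tKO stood apart. It had the most barcodes. Of those with at least 500 genes, Scrublet called 26.1% doublets, against 1.74% to 5.80% in the others. Among its members the share was 37.7% (126 of 334), against at most 1.54%. The expected rate given to Scrublet was set in proportion to the number of such barcodes, and so was highest for tKO. The library's members had a lower median depth, 8475.5 UMIs against 9171.5 to 11554. None of its members was called female from the sex-linked genes and 319 were called male, whereas the WT members held 42 male and 68 female nuclei. Between 105 and 459 barcode sequences were shared by a pair of libraries, and no member barcode was shared.

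The members numbered 118 in the WT library, 334 in tKO, 130 in aKO and 183 in nKO. As a share of all inhibitory nuclei under the same Gad and Slc17a7 limits, they made up 12% (exact 95% binomial interval 10.0 to 14.2) of 984 in WT, 9.93% (8.94 to 11.0) of 3364 in tKO, 10.7% (9.03 to 12.6) of 1213 in aKO and 14.1% (12.2 to 16.1) of 1301 in nKO. The intervals of the tKO and nKO shares did not overlap, and each of them overlapped the WT interval. Nuclei with at least 5000 UMIs were also thinned to 5000 UMIs and gated again, and those with fewer were left out. The shares were then 8.10% of 605 (WT), 9.24% (7.94 to 10.7) of 1808 (tKO), 9.93% of 745 (aKO) and 11.2% (9.18 to 13.6) of 836 (nKO). The tKO and nKO intervals then overlapped, and the place of the WT library changed with this setting. Because the Cnr1 limit is a fixed number of UMIs, deeper nuclei pass it more readily.

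**Figure D1:**
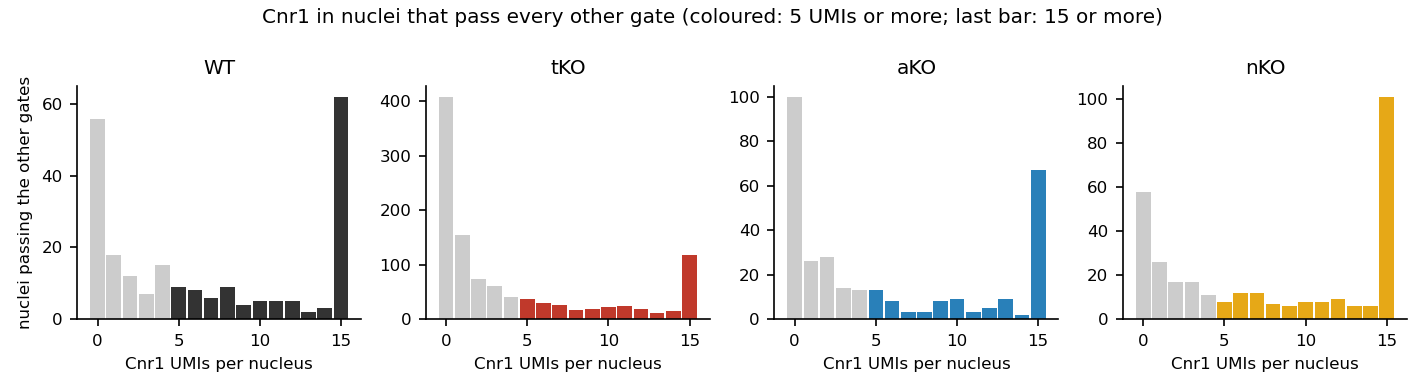
Number of nuclei (y axis) by Cnr1 UMIs per nucleus (x axis, the last bar holds 15 or more) for each library, among nuclei that passed every other condition of the rule; coloured bars are the members. The counts show no gap at the limit of 5, and 62 WT, 117 tKO, 67 aKO and 101 nKO nuclei lie at 15 or more.

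The limit on Cnr1 ran through a continuum. Nuclei with 3 or 4 Cnr1 UMIs that met every other condition numbered 22 (WT), 100 (tKO), 27 (aKO) and 28 (nKO), and those just inside, at 5 or 6, numbered 17, 65, 21 and 20. Just outside the limit the WT nuclei held 37 Cck UMIs of 213430 in all, and just inside they held 66 of 154261. In tKO the corresponding counts were 80 of 731561 and 74 of 480316. The nuclei at 15 or more Cnr1 UMIs held most of the Slc17a8 transcripts of the members, with 115 of 132 in WT and 304 of 334 in tKO. At the Adarb2 limit the libraries differed: 36 tKO members had 1 to 19 Adarb2 UMIs, against 2 or 3 in each other library. Of those 36 nuclei, 30 carried at least 3 UMIs over 7 genes of striatal medium spiny neurons, and over all members such nuclei made up 13.8% in tKO and 2.31% to 3.39% elsewhere. Results on the tKO library are therefore also given for members with at least 20 Adarb2 UMIs.

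The label was checked against the genes given for these cells. Cck, the peptide that names the class, was at 1077 CPM (a gene's UMIs scaled to the same total for every sum) in WT members, 618 in tKO, 885 in aKO and 760 in nKO. Npas1, a transcription factor, stood at 165, 151, 171 and 209 CPM, and Htr3a, a subunit of the ionotropic serotonin receptor, at 83.3, 54.5, 46.3 and 80.5 CPM. Slc17a8, which encodes the vesicular glutamate transporter VGLUT3, was at 96.4, 108, 108 and 88.2 CPM. Cxcl14, a chemokine, was at 359, 191, 284 and 332 CPM. Each of these genes was detected in all 4 libraries and the spread among them stayed below 2-fold. Npas1 had a UMI in 56.0% to 73.2% of members and in 0.286% to 0.629% of excitatory nuclei of the same libraries, whose median depth was 8846 to 12039.5 UMIs. The range for Slc17a8 was 20.1% to 22.9% of members against 0.136% to 0.322% of excitatory nuclei. Cxcl14 was found in 48.8% to 63.9% of members against 1.05% to 2.47%. Cck had a UMI in 73.1% to 76.5% of members, but also in 73.4% to 84.2% of excitatory nuclei, so a Cck UMI alone did not separate them. With each nucleus at 5000 UMIs, the share of members with a UMI was 47.8% (WT), 44.7% (tKO), 49.2% (aKO) and 59.6% (nKO) for Npas1, and 18.6%, 17.4%, 18.8% and 15.2% for Slc17a8. The shares in excitatory nuclei do not set the members apart from other inhibitory nuclei. In WT at 5000 UMIs, Npas1 was also found in 37.9% of Vip and 16.3% of Sst nuclei. Cxcl14 was found there in 34.5% of Vip nuclei, against 45.1% of members, and Slc17a8 in 0 of 87 Vip nuclei. The markers were present in every library, and VGLUT3 transcripts were detected in a minority of the nuclei.

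To ask what else sets these nuclei apart, their summed counts were compared with those of nuclei that met the same inhibitory conditions and had transcripts of exactly 1 of the other class markers: at least 2 UMIs of Lamp5 (658 nuclei), Vip (405) or Sst (1648), or at least 1 of Pvalb (582). Each class was summed within each library, giving 20 sums, and edgeR's quasi-likelihood test compared the members with the equally weighted mean of the 4 classes, with the library as a block. The libraries served as the replicates (n = 4) and differ in genotype. Of 12511 genes tested, 1302 (10.4%) were higher in the members and 1038 (8.3%) lower at an adjusted p under 0.05, and the median log2 difference over all genes was 0.01. Against single classes, 34.2% of genes differed from Pvalb nuclei, 20.4% from Sst, 18.0% from Lamp5 and 10.7% from Vip. The members were higher than every class for 191 genes (1.53%) and lower than every class for 80 (0.639%).

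Among the genes that these nuclei are known for, 12 of 13 tested CCK-type markers were higher, against 10.4% of all genes, and the list's median log2 difference was 3.18. Sncg, also on the list, had too few UMIs to be tested, at 11.7 (WT), 2.92 (tKO), 3.93 (aKO) and 4.55 CPM (nKO) in the members. The list holds the genes that named the cells and was drawn up with earlier results of these data known, so its count is no independent evidence. Cck was 2.6 ± 0.13 (SE) log2 units above the mean of the classes (edgeR adjusted p = 3.34e-13). Its mean level in Vip nuclei was 589 CPM, against 201 in Lamp5, 46.7 in Sst and 65.4 in Pvalb, and the members were not called higher than the Vip nuclei. Htr3a and Tac2, which encodes neurokinin B, were higher than the mean but lower than in Vip nuclei, where they stood at 90.4 and 386 CPM. Prox1, a transcription factor of caudal eminence cells, did not pass (0.18 log2 units, edgeR adjusted p = 0.716). Its level was 68.7, 47.0, 27.5 and 37.7 CPM in the members of the 4 libraries and averaged 248 CPM in Vip nuclei. Of the 4 classes, the Vip nuclei had the most Cnr1, at 863 CPM on average, and the fewest genes that differed from the members, but also the fewest nuclei.

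Among genes with at least 100 UMIs in the members, Nr1h4, Slc17a8 and Krt73 had the largest fitted differences. Each had 0 UMIs in all sums of some other class, so the fitted value is no bound. Slc17a8 stood 6.19 ± 0.34 log2 units above the mean (edgeR adjusted p = 1.23e-11). It had 0 UMIs in all Vip nuclei, and the members' mean was 11.3-fold that of Sst nuclei, the next class. Nr1h4, the bile acid receptor FXR, was at 18.3, 12, 27.5 and 5.46 CPM in the members. It had 0 UMIs in Lamp5 and Vip nuclei, and the members' mean was 13.9-fold that of Pvalb nuclei, the next class at 1.13 CPM. With DESeq2 its log2 difference was 5.95 and its adjusted p was 0.253. Nr1h4 lies on chromosome 10 (GRCm38, 89454234 to 89533585, minus strand), 40434 bases from Slc17a8 (89574020 to 89621253) on the same strand. Krt73, a keratin, was at 13.9, 13.9, 21.2 and 14.5 CPM, had 0 UMIs in Lamp5 nuclei and was 4.81-fold above Vip nuclei.

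Syt6, a synaptotagmin, and Cadps2, a factor for priming dense-core vesicles, were high in every library. Syt6 stood at 191 (WT), 261 (tKO), 231 (aKO) and 276 CPM (nKO), and 40.5 CPM or less on average in each other class. It was 4.23 ± 0.16 log2 units above the mean (edgeR adjusted p = 1.57e-14). Cadps2 stood at 1558, 1877, 1709 and 1986 CPM, 3.87-fold above Vip nuclei, the next class at 460 CPM on average. Gm43066, a transcript of 1260 bases annotated inside Syt6 on the same strand, followed with 4.47 log2 units, and reads of the overlap cannot be told apart. Calca, which encodes calcitonin and CGRP, was 4.30 ± 0.28 log2 units higher, with values that spread widely over the libraries: 73.1, 17.8, 52.6 and 10.9 CPM. The other genes with the largest differences were Cxcl14 (4.16 log2 units), the growth factor gene Bmp3 (4.00), the phagocytic receptor gene Megf10 (3.67), the matrix gene Frem2 (3.59) and Gm20559 (4.60).

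**Figure D2:**
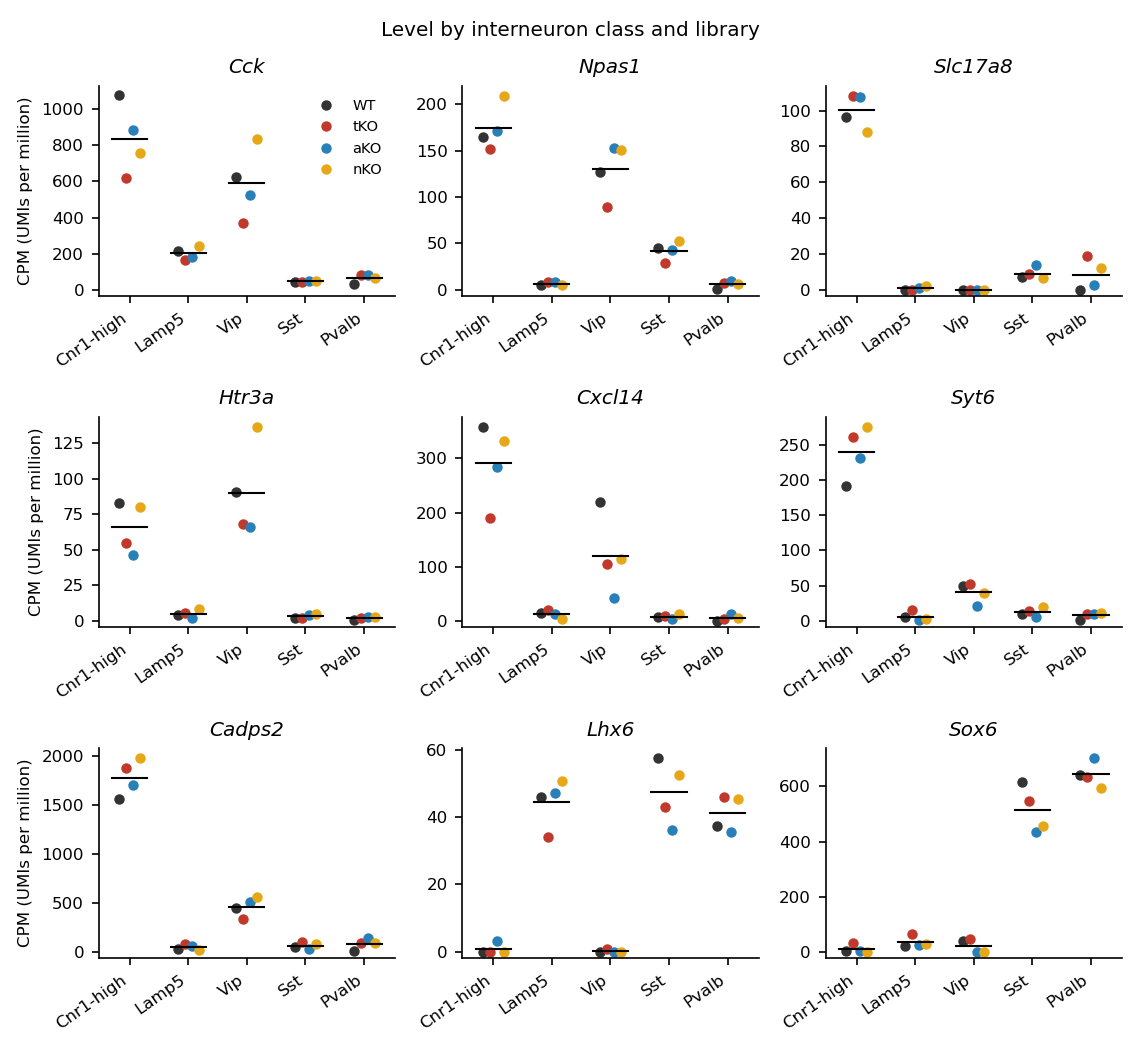
Level in CPM (y axis) of 9 genes in the members and in Lamp5, Vip, Sst and Pvalb nuclei (x axis); each dot is a library and each line the mean of 4. Slc17a8 and Syt6 are high in all 4 member sums, Htr3a averages 90.4 CPM in Vip nuclei, above the members, and Lhx6 is near 0 in members and Vip nuclei.

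Of 5 tested genes of the medial ganglionic eminence, 3 were lower in the members, against 8.3% of all genes, and the other two did not pass. Lhx6, the factor that specifies those cells, had 4 UMIs in all members, with 0, 0, 3.14 and 0 CPM over the libraries, and averaged 44.4 CPM in Lamp5, 47.4 in Sst, 41.0 in Pvalb and 0.210 in Vip nuclei. Its difference was -4.55 ± 1.23 log2 units (edgeR adjusted p = 0.00936), and no value could be fitted without the tKO library, without doublets or after thinning. Sox6 was lower (-3.49 ± 0.42 log2 units, edgeR adjusted p = 6.04e-07). Sox6 stood at 2.92, 3.14 and 0 CPM in WT, aKO and nKO members and at 32.1 CPM in the tKO members. Sox6 averaged 515 CPM in Sst and 644 CPM in Pvalb nuclei. The other lowest genes were Cort (cortistatin), Rbp4 (retinol binding protein), Moxd1, Gm26633, Gm826, Gm45025 and Aox3, an aldehyde oxidase. Gm26633, Gm826 and Gm45025 were called lower than Sst and Pvalb nuclei only. Cort and Moxd1 were not called lower than Vip nuclei (edgeR adjusted p = 0.0695 and 0.721), nor Rbp4 than Lamp5 nuclei (edgeR adjusted p = 0.0689). The call of Gm45025 was lost after thinning, at a log2 difference of -4.12 (edgeR adjusted p = 0.0564). Aox3 had 0 UMIs in the members, at least 17.2-fold below its mean of 6.52 CPM in the other classes with a floor of 3 counts over all members. That mean was carried by the Pvalb nuclei at 22.7 CPM, and the members were not called different from Lamp5 nuclei, at 0.429 CPM (edgeR adjusted p = 0.148). Cort was -4.26 ± 0.43 and Rbp4 -3.92 ± 0.40 log2 units, and each had at most 2.36 CPM in any member sum.

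Of 20 genes in a list of transcription factors, 6 were higher and 6 lower, against 10.4% and 8.3% of all genes, and 8 did not pass. Npas1, Prox1 and Nr2f2 are also on the list of CCK-type markers and were counted there too. Npas3, a bHLH-PAS factor like Npas1, was at 3639 to 4645 CPM in the members and 2.14 ± 0.11 log2 units higher (edgeR adjusted p = 4.99e-13). Sp8 and Nr2f2 (COUP-TFII), both factors of caudal eminence cells, were higher by 2.92 and 1.37 log2 units, and neither was called different from Vip nuclei. Tox3 was lower (-2.18 ± 0.17 log2 units), at 14.1 to 36.6 CPM against 150 to 260 CPM on average in Lamp5, Sst and Pvalb nuclei. In a list of genes that mark the Lamp5 class, 3 of 7 tested were higher, against 10.4% of all genes, among them Ndnf (3.19 ± 0.23 log2 units), and Nos1, the neuronal nitric oxide synthase, was lower than in every class. Ndnf stood at 202, 80.1, 170 and 157 CPM in the members and at 184 CPM on average in Lamp5 nuclei, which the rule keeps out by Lamp5 itself.

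The GABA-A receptor subunits differed in both directions: 6 of 14 GABA receptor genes were higher and 6 lower, against 10.4% and 8.3% of all genes, and 2 did not pass. Gabra2, the alpha 2 subunit, stood at 465, 555, 536 and 427 CPM, and all 4 member sums exceeded the means of the classes, 95.6 to 311 CPM. It was higher than every class (1.37 ± 0.13 log2 units, edgeR adjusted p = 9.26e-09). Gabrd, the delta subunit of extrasynaptic receptors, was lower (-1.89 log2 units), as was the GABA-B subunit Gabbr2 (-1.07), whereas the other GABA-B subunit, Gabbr1, was higher by 0.36. The vesicular transporter Slc32a1 did not pass (0.08 log2 units, edgeR adjusted p = 0.62).

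The calcium channels that trigger release were also unevenly represented. Cacna1b, which encodes the N-type channel, stood at 502, 517, 514 and 627 CPM in the members and at 223 to 349 CPM on average in the classes. It was higher than every class (0.85 ± 0.06 log2 units, edgeR adjusted p = 1.36e-10). Cacna1a, which encodes the P/Q-type channel, stood at 283, 280, 229 and 196 CPM in the members and at 343 to 1005 CPM on average in the classes, and was lower than every class (-1.42 ± 0.11 log2 units, edgeR adjusted p = 2.62e-10). Over all ion channels on the list, 12 of 34 were higher and 11 lower, against 10.4% and 8.3% of all genes, and 11 did not pass. Kcnq5, a subunit of the M-current potassium channel, was higher by 1.86 ± 0.10 log2 units, at 2577 to 3187 CPM, and Trpc6 was lower (-1.97 ± 0.27). Of 28 genes for vesicle release, 7 were higher and 5 lower, against 10.4% and 8.3% of all genes. Beside Syt6, the active zone protein gene Pclo exceeded every class (0.97 ± 0.06 log2 units). Cplx2 (complexin 2) was higher by 1.69 log2 units, and Syt7 (-1.04) and Rab3b (-1.0) were lower.

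Receptors for modulators and for glutamate differed in both directions, and their counts stand against 10.4% of all genes higher and 8.3% lower. Of 13 serotonin and acetylcholine receptor genes tested, 6 were higher and 1 lower. Htr2c, a serotonin receptor, was at 319 to 410 CPM and higher by 1.77 ± 0.20 log2 units (edgeR adjusted p = 2.81e-07). Chrm3, a muscarinic receptor, was at 1098 to 1505 CPM and higher by 1.31 ± 0.08 (edgeR adjusted p = 3.68e-12). Neither was called different from Vip nuclei. Htr4 was lower (-1.51 log2 units). Of 12 opioid, adrenergic and peptide receptors, 3 were higher and 3 lower, with the neuropeptide Y receptor Npy1r at 2.13 log2 units and the oxytocin receptor Oxtr at -1.76. Oxtr had at most 1.46 CPM in any member sum, and its call was lost without doublets at a log2 difference of -1.52 (edgeR adjusted p = 0.142). Of 22 glutamate receptors, 4 were higher and 10 lower, including Gria3 (-1.05 log2 units), Grm7 (-0.99) and Grm5 (-0.87), while the delta receptor Grid1 was higher (0.81). Of 10 genes tested in a list of neuropeptides, 3 were higher (Tac2, Cck and Pnoc) and 2 lower (Cort and Rspo2). Rspo2 encodes R-spondin, a secreted activator of Wnt signalling and no neuropeptide, and Calca was not on the list. Of 22 synaptic adhesion genes, 5 were higher and 9 lower. Nrxn3, a neurexin, exceeded every class (1.12 ± 0.06 log2 units, at 17362 to 19901 CPM), and Il1rapl1 was below every class (-1.34 ± 0.11). Of 15 immediate early genes tested, 14 did not pass and Nr4a3 was lower (-1.16 log2 units). Without the library block, the calls of Pnoc and Nr4a3 were lost (edgeR adjusted p = 0.092 and 0.0826).

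Apart from Cnr1, which chose the nuclei, 12 endocannabinoid genes were tested, and 3 were lower, against 8.3% of all genes, while 9 did not pass, with a median of -0.07 log2 units. None was called higher by edgeR, by DESeq2 or at an unadjusted p under 0.05. Dagla, the lipase that makes 2-AG, was at 13.9, 29.5, 11.0 and 12.7 CPM in the members and was lower (-1.02 ± 0.19 log2 units, edgeR adjusted p = 0.000209). Plcb1, the phospholipase upstream of it, was at 605, 894, 584 and 443 CPM, against 1111 to 1687 CPM on average in the classes, and was lower than every class (-1.05 ± 0.09 log2 units, edgeR adjusted p = 2.16e-09). For both genes the tKO sum was the highest of the members. Abhd6, another 2-AG hydrolase, was lower (-0.27 log2 units, edgeR adjusted p = 0.0233), a call that was lost under 5 alternatives, where the adjusted p ran from 0.0524 to 0.301. Mgll did not pass (-0.03 ± 0.09 log2 units, edgeR adjusted p = 0.903), and Faah, the hydrolase of anandamide, was at 32.3 to 45.6 CPM and did not pass either (0.01 log2 units).

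**Figure D3:**
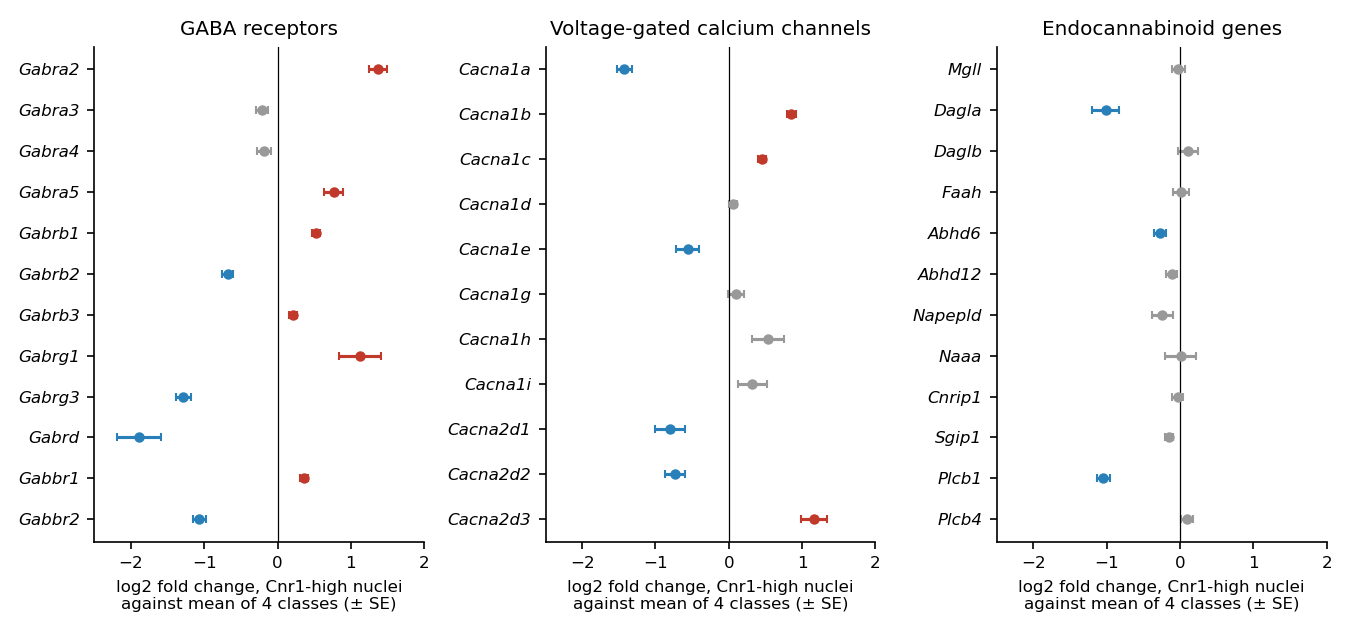
Log2 difference between the members and the equally weighted mean of the 4 classes (x axis), with bars of 1 SE from edgeR, for GABA receptor, calcium channel and endocannabinoid genes (y axis, 1 panel each); red is higher and blue lower at an adjusted p under 0.05, grey did not pass. Gabra2 and Cacna1b lie to the right while Gabrd and Cacna1a lie to the left, and Mgll lies at -0.03. In each library the level of Mgll was higher in Lamp5 nuclei and lower in Sst nuclei than in the members.

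Transcripts of genes that mark other cells were present at low levels in these sums. Summed over a list of excitatory neuron markers, the members held 303 (WT), 415 (tKO), 249 (aKO) and 280 CPM (nKO), over astrocyte markers 162, 292, 142 and 132 CPM, and over oligodendrocyte markers 122, 210, 40.1 and 35 CPM. The tKO sum was the highest in all 3 lists. Camk2a held 233 CPM of the excitatory sum in WT, where Neurod6 was at 8.77 CPM. Slc1a2 held 117 CPM of the astrocyte sum in WT, where Aqp4 was at 0.731 CPM. In tKO, Slc4a4 held 159 CPM of the astrocyte sum, against 11.8 to 33.0 CPM elsewhere, while Slc1a2 was at 111 CPM. Of 6 excitatory markers tested against the other interneuron classes, none passed with edgeR or DESeq2 or at an unadjusted p under 0.05. Trp73, a marker of Cajal-Retzius cells, which also carry Reln, was at 0 CPM in every library. Whether the transcripts on these lists came from other cells, and their part in the differences above, was not tested.

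The members were not uniform. Nuclei with at least 2 Slc17a8 UMIs numbered 21 of 118 in WT (17.8%), 50 of 334 in tKO (15.0%), 23 of 130 in aKO (17.7%) and 24 of 183 in nKO (13.1%). They were set beside the members with 0 Slc17a8 UMIs, which numbered 91, 267, 103 and 146. The split was chosen after the values had been seen, it divides the same nuclei that the rule gathered, and what follows is a description with no test. Of 8071 genes, 44 were at least 2-fold higher and 64 at least 2-fold lower in the nuclei with Slc17a8 in all 4 libraries.

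Mgll differed along this split. The nuclei with Slc17a8 held 328 CPM of Mgll in WT (exact 95% Poisson interval 260 to 409), 255 (213 to 302) in tKO, 301 (234 to 381) in aKO and 251 (198 to 314) in nKO. Those without held 64.5 (50.2 to 81.6), 97.5 (85.4 to 111), 95.4 (77.3 to 116) and 64.5 CPM (53.1 to 77.6). The folds were 5.09, 2.62, 3.16 and 3.89, and the intervals did not overlap in any library. Lamp5 nuclei averaged 280 CPM of Mgll, and their interval overlapped that of the nuclei with Slc17a8 in every library. The Vip, Sst and Pvalb nuclei averaged 83.4 to 108 CPM. The members without Slc17a8 overlapped the Vip nuclei in every library, but lay below the Pvalb nuclei in WT, and below both Sst and Pvalb nuclei in nKO, with no overlap. Cck was also higher, at 2627, 1240, 1864 and 1969 CPM with Slc17a8 against 731, 455, 664 and 536 CPM without. Faah and Dagla had overlapping intervals in every library.

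The genes most different along the split included Yjefn3, Adamts18, a matrix protease, and Gas2l3. Yjefn3 was at 312, 255, 332 and 205 CPM with Slc17a8 and at 30.5 to 49.7 CPM without. Nr1h4 was at 98.5, 69.5, 148 and 16.5 CPM with Slc17a8 and at 0.935, 0.418, 0.994 and 3.46 CPM without. The nKO library had the smallest difference in this gene. On the other side, Ndnf, a secreted neurotrophic factor, was at 24.6, 15.4, 8.73 and 16.5 CPM with Slc17a8 and at 252, 99.1, 212 and 184 CPM without. Adgrg6, an adhesion receptor, had 0 UMIs with Slc17a8 and 159 without. Bmper, an antagonist of bone morphogenetic proteins, Reln and Kirrel3 were likewise lower.

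A second division ran along Cxcl14. Nuclei with at least 2 Cxcl14 UMIs made up 47.5% of members in WT, 34.4% in tKO, 45.4% in aKO and 54.1% in nKO. Of 7851 genes, 61 were at least 2-fold higher and 73 at least 2-fold lower in them than in the members with 0 Cxcl14 UMIs, in all 4 libraries. Cadps2 stood at 2458, 3019, 2442 and 2845 CPM with Cxcl14 and at 421, 722, 316 and 441 CPM without. Syt6 stood at 300, 429, 296 and 393 CPM with it and at 70.9, 101, 59.6 and 71.1 CPM without. Tnc, the matrix glycoprotein tenascin C, was at 32.6 to 35.8 CPM with Cxcl14 and at most 1.96 CPM without. Syt6 and Cadps2 thus varied within the members by more than 3-fold in each library. Calca was on the other side, with 0 UMIs in nuclei with at least 2 Cxcl14 UMIs and 246 in those with 0. Both divisions overlapped: 52.4% (WT), 16% (tKO), 34.8% (aKO) and 29.2% (nKO) of the nuclei with Slc17a8 also had at least 2 Cxcl14 UMIs, against 46.2%, 38.6%, 47.6% and 58.9% of those without.

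**Figure D4:**
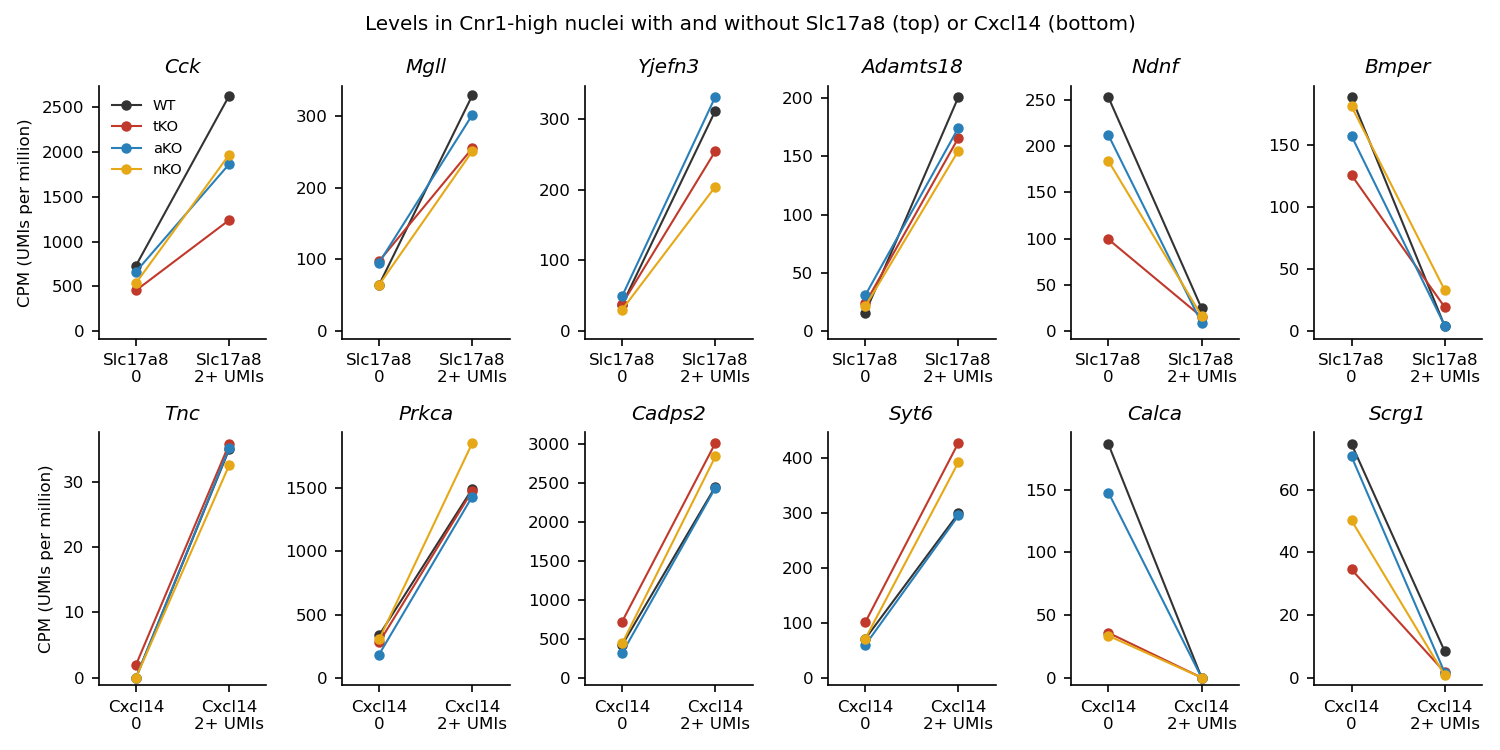
Level in CPM (y axis) of 6 genes in members with 0 or at least 2 Slc17a8 UMIs (upper panels) and of 6 genes in members with 0 or at least 2 Cxcl14 UMIs (lower panels), with a line for each library. Mgll is at 251 to 328 CPM with Slc17a8 and at 64.5 to 97.5 CPM without, and every line rises or falls the same way within a panel.

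Turning to genotype, Mgll came first. Its level over all members was 114 CPM in WT (exact 95% Poisson interval 96.8 to 133), 135 (122 to 148) in tKO, 134 (114 to 155) in aKO and 95 (82.6 to 109) in nKO. Relative to WT the log2 ratios were 0.24 (-0.03 to 0.52), 0.23 (-0.09 to 0.55) and -0.26 (-0.57 to 0.05), and all 3 intervals held 0. The tKO ratio was 0.38 with at least 20 Adarb2 UMIs, at 144 CPM (130 to 159) against 110.1 (93.0 to 129), and 0.39 without medium spiny nuclei, at 143 CPM (129 to 159) against 109 (92.0 to 128). Without doublets it was 0.56, at 166 CPM (147 to 186) against 112 (95.2 to 132). The tKO and WT intervals did not overlap in these 3 settings. In male nuclei, as all sexed tKO members are, the ratio was 0.17, at 133 CPM (121 to 147) in tKO and 117 (88.4 to 152) in WT, and the intervals overlapped. After thinning the ratio was 0.27. Lamp5 nuclei had 289, 242, 322 and 267 CPM. Transcripts of the targeted gene were thus not lower in the members of the library labelled tKO. The deposited counts cover the whole gene, on chromosome 6 (GRCm38, 88724412 to 88828360, plus strand), and the sources used here do not say where the deleted part lies, so this count checks neither the label nor the loss of the enzyme. The libraries are called by their labels in what follows.

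Of 8240 genes with at least 100 UMIs over the members, 126 (1.53%) were at least 2-fold higher and 100 (1.21%) at least 2-fold lower in the library labelled tKO than in WT. In the library labelled aKO the counts were 36 (0.437%) and 152 (1.84%), and in nKO 36 (0.437%) and 164 (1.99%). All 3 comparisons share the WT library, so a high or low value there enters each of them. For tKO the counts were 62 higher and 94 lower with at least 20 Adarb2 UMIs, 53 and 88 without medium spiny nuclei, and 63 and 117 without doublets, so the larger count changed side. With TMM scaling they were 151 and 73 in tKO, 57 and 111 in aKO and 64 and 113 in nKO. These are ratios of 2 libraries, with no replicate check, and the median log2 ratio of all genes was -0.06, -0.06 and -0.04.

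Of the 13 CCK-type markers, 0 differed by 2-fold in tKO, Tac2 (-1.62) and Prox1 (-1.30) were lower by more than 2-fold in aKO, and Tac2 (-1.02) in nKO. Over all genes 1.21%, 1.84% and 1.99% were lower and 1.53%, 0.437% and 0.437% higher. The nKO value of Tac2 was -0.48 in male nuclei and -0.74 after thinning. In male nuclei, against the same male WT nuclei, 2 of the markers were higher by 2-fold in each knockout library, while 1 was lower in tKO (Cxcl14, -1.22), 2 in aKO and 0 in nKO. Of 6730 genes with at least 100 UMIs in male members, 2.36%, 1.89% and 1.53% were higher and 1.29%, 2.69% and 2.42% lower. The 2 higher markers were Calb1, with 13 UMIs in WT, and Krt73, with 2 UMIs in WT and 81 in all, under that limit. Without doublets Prox1 was at -1.07 in tKO. The medians of the list were -0.52, -0.28 and -0.05. Cck had log2 ratios of -0.80, -0.28 and -0.50, and Htr3a of -0.62, -0.83 and -0.05. The tKO median was -0.38 for members with at least 20 Adarb2 UMIs and -0.15 without doublets, against -0.06 over all genes. Cck had a UMI in nearly the same share of members in every library, and the WT nuclei that had it held 16.9 UMIs each, against 7.74 in tKO, 11.9 in aKO and 11.9 in nKO. At 5000 UMIs a nucleus these numbers were 8.27, 4.90, 7.32 and 4.98. Of the 13 GABA receptor genes, 0 passed 2-fold in any comparison, against 0.437% to 1.99% of all genes in each direction. Of 11 endocannabinoid genes, 1 passed it, Dagla in tKO (log2 1.03, against 1.53% of all genes higher, and 0.46 for members with at least 20 Adarb2 UMIs). Among 4 neuropeptides, Npy (-1.07) and Pnoc (-1.21) were lower by more than 2-fold in tKO, against 1.21% of all genes, and Tac2 in aKO and nKO as above. With at least 20 Adarb2 UMIs the ratios were -0.90 and -1.10, and without doublets, where neither passed 2-fold, -0.66 and -0.96.

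Single genes are named among those past 2-fold whose interval excluded no difference and whose level in the members was at least that in all other nuclei, with gate, sex and mitochondrial genes left out. Genes outside this limit had larger ratios in places. Within it, the highest ratios in the library labelled tKO belonged to Rarb, Rgs9, Meis1 and Itga9. Rarb, a retinoic acid receptor, was at 158 CPM against 11.7 in WT (log2 3.67), and Rgs9, a regulator of G protein signalling in the striatum, at 117 against 11.0 CPM (3.32). Both met the limit on level only through tKO, since the members of the other libraries held at most 26.7 CPM of Rarb and 15.9 of Rgs9, against means of 35.4 and 29.7 CPM in all other nuclei. Itga9 also met it only through tKO, at 31.1 CPM there and at most 11.4 CPM in the other libraries, against 11.6 CPM in all other nuclei. The places of Rarb, Rgs9 and Itga9 are thus set in part by the limit. Rarb and Rgs9 belong to the 7 genes by which medium spiny nuclei were marked. For members with at least 20 Adarb2 UMIs the ratios were 1.97 for Rarb, 0.86 for Rgs9, 0.87 for Meis1 and 0.53 for Itga9, and without the medium spiny nuclei, whose removal uses both genes, Rgs9 was at -0.16 and Rarb at 20.9 CPM in tKO against 4.55 in WT. The 10 genes of the medium spiny list summed to 1884 CPM in tKO members against 923 to 1126 CPM in the other libraries. Without Pde10a and Foxp1, which the other members also express, the sums were 337 against 32.1 to 42.3 CPM, and 88.7 CPM for tKO members with at least 20 Adarb2 UMIs.

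Under the same limit, the lowest ratio in tKO, and a low one in aKO and nKO, was that of Gm49980, a predicted gene. It was at 49.0 CPM in WT members (37.9 to 62.2), 4.21 in tKO (2.24 to 7.21), 12.6 in aKO (7.18 to 20.4) and 15.5 in nKO (10.7 to 21.6). The WT level was above all 3 others with no overlap of intervals. The same order was seen in the other interneurons of the libraries, at 21.9, 2.43, 5.64 and 7.68 CPM, so it was not limited to the members. Adgrg6 (-2.71) and 8030451O07Rik (-1.86) were next in tKO beside Calca. Adgrg6 was at 48.2 CPM in WT and 7.13 in tKO, 8.03 in tKO with at least 20 Adarb2 UMIs, and 0 UMIs there without doublets (interval 0 to 2.16 CPM). It was also lower in aKO, at 14.9 CPM (log2 -1.64, -2.51 to -0.94), and nKO, at 23.6 CPM (-1.02, -1.58 to -0.48), so WT stood above all 3. 8030451O07Rik was at 26.3 CPM in WT and 7.13 in tKO, and at 8.03 in tKO with at least 20 Adarb2 UMIs.

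Calca was lower in tKO (log2 -2.02, interval -2.54 to -1.55) and nKO (-2.70, -3.45 to -2.09), and the ratio was -0.47 (-0.94 to -0.01) in aKO, where it turned to 0.27 in male nuclei and 0.003 after thinning. Calca was detected in 10 of 118 nuclei in WT, 27 of 334 in tKO, 10 of 130 in aKO and 11 of 183 in nKO. Nuclei with Calca held on average 10.0 UMIs each in WT, 2.04 in tKO, 6.70 in aKO and 2.18 in nKO. At 5000 UMIs a nucleus the numbers were 4.0, 2.12, 4.1 and 1.17, with WT and aKO the higher pair. The 2 nuclei with the most Calca held 34 of 100 UMIs in WT and 41 of 67 in aKO, so the sums rested on few nuclei. In the other interneurons Calca was at 11.0 (WT), 4.29 (tKO), 5.45 (aKO) and 2.88 CPM (nKO), so WT was the highest there too.

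In the library labelled aKO, Egfr, the epidermal growth factor receptor gene, had the lowest ratio of the genes within that limit. It stood at 32.9 CPM in WT members (24.0 to 44.0), 30.5 in tKO, 6.28 in aKO (2.71 to 12.4) and 7.27 in nKO (4.16 to 11.8), so WT and tKO were high and aKO and nKO low. Its mean over the libraries was 19.2 CPM against 18.6 in all other nuclei, so it met the limit on level only through WT and tKO, and the WT value that let it in also set its ratio. The ratios were -2.25 in aKO and -2.12 in nKO. In the other interneurons, it was at 145, 106, 110 and 112 CPM, and at 5000 UMIs a nucleus it was found in 57.2% to 66.3% of Lamp5 and 56.2% to 66.7% of Vip nuclei. Among the members it was found in 11, 28, 5 and 8 nuclei, and 2 WT nuclei held 27 of the 45 WT UMIs. Also within it, the next lowest in aKO beside Gm49980 were Tmem255a (-1.81) and Micos13 (-1.67), and the highest were Tsfm (1.4), Tmem214 (1.30) and Kcns3 (1.28), a modulatory potassium channel subunit. The values that set these ratios also entered the mean that met the limit, which thus set their places at least in part. The members' means were 15.2 CPM for Micos13 and 16.1 for Tmem255a, against 11.0 and 14.2 in all other nuclei. For Tmem214 and Kcns3, highest in aKO at 36.9 and 40.1 CPM, they were 24.8 and 26.4 CPM, against 22.1 and 22.2. Without WT the means of Micos13 and Tmem255a, and without aKO those of Tmem214 and Kcns3, would lie below these levels of all other nuclei. Micos13, Tmem255a, Tmem214 and Kcns3 thus met the limit only through a library that set their ratios. Micos13 was highest in WT, at 29.2 CPM, and was also lower in tKO (-1.21) and nKO (-1.46). In nKO, Nr1h4 was lower (-1.68), and Dach2 (1.66), Gm41333 (1.35) and Akap12 (1.32) were among the highest. Gm41333 and Akap12 had 10 UMIs each in WT, their lowest library, and were at 1.10 and 1.25 in tKO and 0.97 and 1.04 in aKO. Dach2 was at -0.38 when only male nuclei were compared.

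4930467D21Rik, a long non-coding RNA on chromosome 5, was higher in all 3 knockout libraries than in WT. It stood at 15.3 CPM in WT members (9.5 to 23.5), 35.7 in tKO (29.3 to 43.0), 36.9 in aKO (27.1 to 49.1) and 45.5 in nKO (37.0 to 55.3). The WT interval overlapped none of the others, but without doublets it overlapped that of tKO, at 29.8 CPM (22.2 to 39.2), and in male nuclei the WT interval (5.88 to 30.1) overlapped that of aKO (23.8 to 58.8). The shares of members with a UMI were 8.47% (4.14 to 15.0) in WT, 13.5% (10.0 to 17.6) in tKO, 13.8% (8.42 to 21) in aKO and 18.0% (12.8 to 24.4) in nKO, and the WT interval overlapped all 3. The log2 ratios were 1.16, 1.23 and 1.51. In the other interneurons it was at 2.25 to 3.27 CPM and in excitatory nuclei at 24.5 to 29.7 CPM, with no such rise in either (log2 ratios -0.49 to -0.32 and -0.23 to 0.04). As 1 WT library enters all 3 ratios, they are not separate observations.

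**Figure D5:**
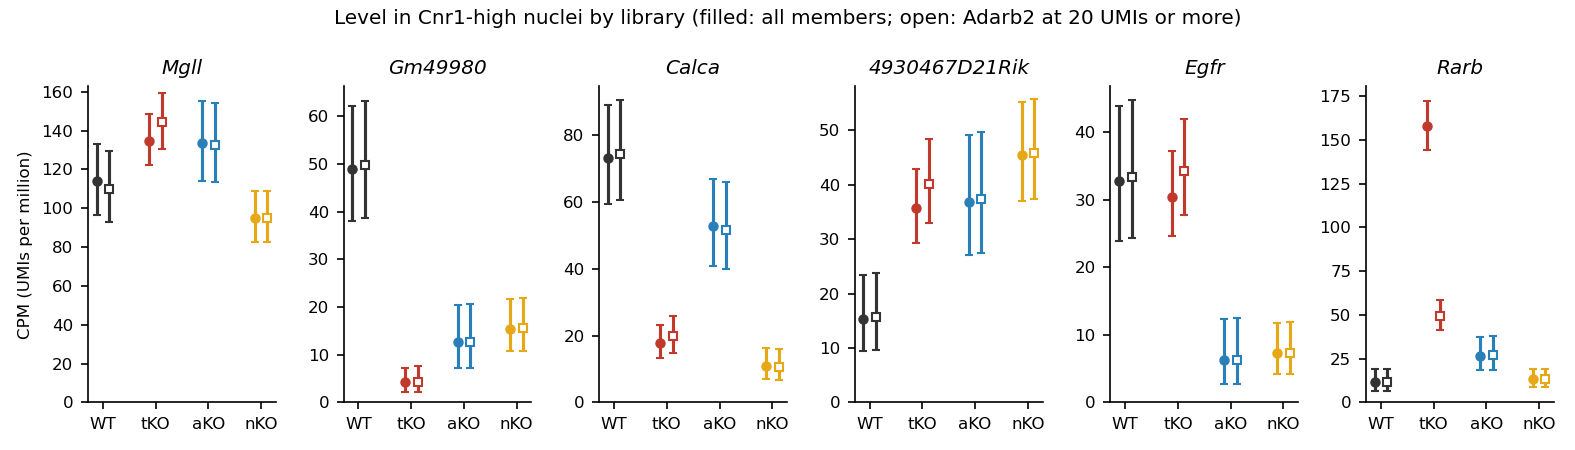
Level in CPM (y axis) of 6 genes in the members of each library (x axis), with exact 95% Poisson intervals that cover counting error only; filled symbols are all members and open symbols those with at least 20 Adarb2 UMIs. Mgll lies between 95 and 135 CPM with filled symbols and reaches 144 with open ones in tKO, Rarb in tKO falls from 158 CPM between filled and open symbols, and 4930467D21Rik is lowest in WT.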

How the data were processed

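Nuclear RNA from 4 hippocampal libraries, 1 per genotype label, was made with a kit for joint RNA and chromatin profiling per the labels' protocols. The deposited files hold UMI counts per gene and barcode, which the authors made with Cell Ranger ARC 2.0.0 on mm10, per the submitters' processing notes. The sources used here do not say whether counting used strand, so a gene and one that overlaps it may share reads. No nucleus was removed by mitochondrial share, since no member exceeded 5%. Doublets were called with Scrublet in scanpy 1.11.5 (Python 3.11.15) and kept in the main analysis. The gate, the comparison classes, the gene lists and the splits within the members were chosen with earlier results of these data known.

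Counts were summed over the nuclei of each class and library. edgeR 4.0.16 (R 4.3.3) tested genes with at least 10 UMIs in at least 4 of 20 sums, with TMM normalization, the library as a block, Benjamini-Hochberg adjustment over all genes and the 9 gate genes left out. For 5 genes no value could be fitted. p-values measure how much the differences between classes vary over 4 libraries of different genotype, with the spread pooled over all classes. Differences shared by all classes of a library are taken out by the block. The fit was tested on simulated counts for 12525 genes: it recovered 100% of genes raised 2-fold and 96% of those lowered 2-fold, and called 0.092% of unchanged genes. Only genes with a mean of at least 20 UMIs a sum were changed, so recovery of genes with fewer UMIs was not measured. The simulated counts held no other differences between classes or libraries than depth. Between genotypes, CPM ratios used a pseudocount of 1 UMI, exact 95% intervals and a limit of 2-fold. Intervals cover counting error only. Depth was 1273021 to 3084888 UMIs over the members of a library.

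Named genes were the 12 highest and 8 lowest past the adjusted threshold with at least 100 UMIs and the same direction in 4 libraries, the 4 highest and 4 lowest ratios per knockout past 2-fold (interval excluding 1, members' mean CPM at least that of all other nuclei, no gate, sex or mitochondrial genes), and up to 4 examples of each list. Further members of the lists, the genes named within the members and the levels of Mgll and Cnr1 in other classes were chosen after their values were seen. Gene positions are from GENCODE M21 (GRCm38), which held 98.1% of 20211 symbols. A few genes are not reported here. Alternatives were DESeq2 1.42.0, its size factors, no filter, no block, each library left out, a Cnr1 minimum of 8, thinning to 5000 UMIs, doublets removed, other pseudocounts and count limits, TMM scaling and male nuclei only. Thinning left out nuclei with fewer than 5000 UMIs. A minimum of 20 Adarb2 UMIs and removal of medium spiny nuclei were added after the data had been seen.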

Additional observations from a re-analysis of the deposited data

How the results depend on the processing

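Against the other classes, the number of higher genes (1302) stayed within 1.5-fold under every alternative except thinning to 5000 UMIs, with 858. Genes higher than every class (191) numbered 121 without the replicate block, and those lower than every class (80) numbered 53 without the replicate block and 51 after thinning. Without the block 1020 genes were higher and 805 lower. The libraries are the block of that fit, and no pairing of animals is given. With each library left out in turn, higher genes numbered 914 to 1113, lower genes 731 to 882, genes higher than every class 130 to 143 and lower than every class 53 to 82. Without nKO, 3 of the 4 counts were lowest, while genes higher than every class were fewest, at 130, without WT and without aKO.

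The members' share of inhibitory nuclei at a Cnr1 minimum of 8 was 9.65% (WT), 7.22% (tKO), 8.74% (aKO) and 11.6% (nKO). Thinning gave 8.10% for WT and 11.2% for nKO, and an Adarb2 minimum of 20 gave 8.86% for tKO.

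With a limit of 30 UMIs (11760 genes), 318 genes were 2-fold higher and 471 lower in tKO, 202 and 524 in aKO, and 187 and 565 in nKO. A pseudocount of 5 left 17 higher and 76 lower in aKO and 9 higher in nKO. TMM scaling gave 57 higher in aKO and 64 in nKO. Male nuclei alone (6730 genes) gave 127 higher in aKO and 103 in nKO. Thinning (5556 genes) gave 74 higher in tKO, 84 lower in aKO and 97 lower in nKO. In tKO 63 genes were higher and 117 lower without doublets, 53 and 88 without medium spiny nuclei, and 62 and 94 at an Adarb2 minimum of 20. The Mgll ratio in tKO was 0.56 without doublets. Directions turned for Dach2 in nKO (-0.38, male nuclei), Calca in aKO (0.27, male nuclei, and 0.003 thinned) and Rgs9 in tKO (-0.16, medium spiny nuclei removed). Apart from fewer genes or nuclei, the cause was not tested. With 118 to 334 nuclei a library, genes near the limit of 100 UMIs rest on few UMIs per library. Dach2, for example, had 10 in WT and 6 in aKO.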
